A study of Homo sapiens with 15 samples.

Results

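The comparison described here set Mia PACA-2 cells overexpressing CDAE67Q, the catalytic mutant of cytidine deaminase (CDA), beside control cells. Libraries carrying the same pool number, 1 to 5, were subtracted from each other, CDAE67Q minus Control, which gave 5 pairs from 10 of the 15 libraries of the series. The other 5 libraries came from cells overexpressing CDA without the mutation. Mia PACA-2 is an established human pancreatic cancer line. Polyadenylated RNA was sequenced from untreated cells in all groups. The labels name neither the vector or promoter behind the overexpression nor what the control cells received. Nothing in them explains a pool or ties pools to separate cultures, so the error behind each p-value is that of 5 numbered pairs and may be technical only.

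Cytidine deaminase belongs to the pyrimidine salvage pathway and converts cytidine and deoxycytidine to uridine and deoxyuridine. It also inactivates cytidine analogue drugs such as gemcitabine, which is given in pancreatic cancer. Its active site holds a zinc ion, and glutamate 67 carries the proton transfers of the reaction, so that replacing it with glutamine gives a protein with little or no activity. CDAE67Q therefore addresses which expression differences accompany the protein when its catalysis is impaired.

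The mutated residue is shown in its reference coding context because it is the 1 position that separates the 2 overexpressed forms. It lies in exon 2 of 4 of CDA, on the plus strand of chromosome 1 (GENCODE release 29 on GRCh38, gene at chr1:20588948-20618908), within chr1:20604951-20604995. Capitals mark the glutamate codon.
CDA codons 60 to 74: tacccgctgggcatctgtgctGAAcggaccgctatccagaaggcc
The values are totals per gene, so they do not separate endogenous from introduced transcript, and the glutamine codon used in the construct is not known here.

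The line's identity and the pool numbers were checked first. Across the 10 libraries, KRT8 had normalised counts of 10649 to 38458 and VIM of 113392 to 267660, while CDKN2A and CDKN2B, on the deleted 9p21 segment of this line, stood at 0 in all 10. The epithelial genes CDH1 and EPCAM did not pass 3.62 and 3.41, PTPRC of leukocytes did not pass 7.88, and DCN of fibroblasts stood at 0. Of the 15 epithelial markers, 9 reached a count of 10, and the list summed to 3875 to 15843 in Control and 4224 to 15320 in CDAE67Q. Summed levels of the 10 fibroblast markers were 6654 to 38013 in Control and 21241 to 39588 in CDAE67Q, and 5 of the 10 reached a count of 10. The leukocyte list, also with 5 of 10 markers reaching 10, summed to 428 to 2403 and 500 to 2399. The estimated depth was 21.4 to 31.4 M reads, with 12508 to 13090 genes detected per library.

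Same-numbered libraries were not alike in every pool. Over the 11341 tested genes, each library's deviation from its group mean was correlated between Control and CDAE67Q. The correlation was 0.92 for pool 5, 0.53 for pool 2, 0.38 for pool 4 and 0.35 for pool 3, but -0.11 for pool 1. Control 1 correlated most with CDAE67Q 4 (r = 0.49), and CDAE67Q 1 correlated most with Control 4 (r = 0.32). CDAE67Q 4 in turn correlated more with Control 1 than with Control 4. Set against the wild-type CDA libraries, Control 1 stood at 0.010 with CDA 1 and at 0.52 with CDA 4, and Control 4 at 0.344 with CDA 4 and at 0.469 with CDA 1. CDA and CDAE67Q libraries of the same number correlated at 0.33 or more in all 5 pools. These values describe likeness across genes, which are not independent. The labelled pairs were kept. The CDA difference, the counts of genes called or of one sign and some of the list medians are also given without pools 1 and 4, and the cause was not tested. Other list medians moved too. Without these pools that of mitotic genes went from 0.08 to 0.17, of homologous recombination genes from -0.02 to 0.04 and of p53 targets from -0.03 to -0.09.

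**Figure D1:**
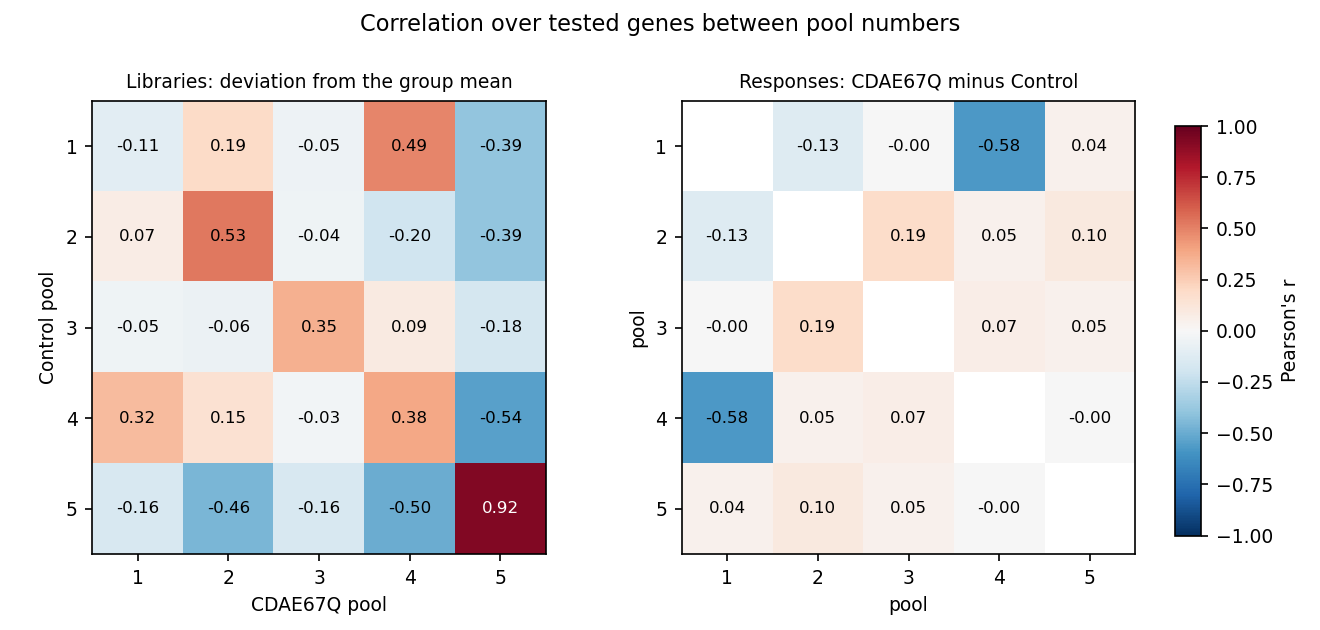
Pearson's r over 11341 tested genes, as colour and number, between pool numbers. The left panel compares each Control library's deviation from its group mean (vertical) with each CDAE67Q library's (horizontal), where the diagonal reaches 0.92 in pool 5 and is -0.11 in pool 1; the right panel compares the CDAE67Q minus Control differences of each pair of pools, where pools 1 and 4 stand at -0.58.

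CDA itself was higher in CDAE67Q in all 5 pairs. The normalised counts in Control were 16.5, 247, 307, 9.78 and 75.5 in pools 1 to 5. In CDAE67Q they were 1334, 1717, 5383, 1648 and 2439. The lowest CDAE67Q library stood above the highest control, although the controls themselves spanned 9.78 to 307. Group means were 131 ± 137 in Control and 2504 ± 1659 in CDAE67Q (SD, n = 5).

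The pair ratios for CDA were 81.1, 6.96, 17.5, 169 and 32.3 in pools 1 to 5. Pools 4 and 1, with the lowest control levels, had the largest ratios, and pool 2 the smallest. On the deposited log2 scale, which compresses differences between low values, the pairs differed by 3.67, 2.30, 3.65, 4.11 and 3.75. The mean was 3.50 (SE 0.234, 95% interval 2.97 to 4.02), with a Benjamini-Hochberg adjusted p of 0.00111 by limma with pool number as a block. An exact 2-sided sign-flip test over the 5 pairs gave p = 0.0625, the smallest it can give. Without the block, limma's adjusted p was 0.0680, so the call rests on the pool numbers. On log2 of the count plus 1 the difference was 5.09, with an adjusted p of 0.0691. Without pool 5 the deposited difference was 3.43 (adjusted p = 0.00813), and without pools 1 and 4 it was 3.23 (adjusted p = 0.00255).

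**Figure D2:**
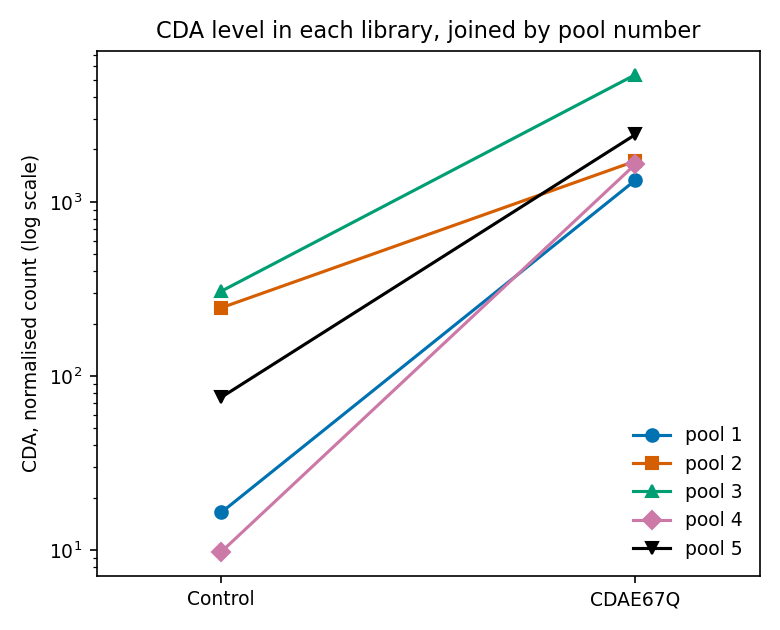
Normalised count of CDA (log scale) in each Control and CDAE67Q library, 1 line per pool number. Control libraries spread from 9.78 to 307 and CDAE67Q libraries from 1334 to 5383, with no overlap.

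No gene other than CDA passed the test. The 1 call among 11341 tested genes is 0.00882% of them, and the test without the block called 0. At an unadjusted p under 0.05, limma gave 157 genes higher (1.38%) and 109 lower (0.961%) with the block, 266 in all (2.35%), and 53 without it (0.467%). A share of about 0.05 would be expected if no gene differed. After CDA the smallest unadjusted p belonged to SAMD4A (0.000633), PKP2 (0.000818) and COL3A1 (0.000916), each with an adjusted p of 0.997. All genes named from here on missed the threshold, and their values describe these 10 libraries.

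The sign of the difference was the same in all 5 pairs for 465 tested genes, 4.1% of 11341. Of these, 243 (2.14%) were higher in CDAE67Q and 222 (1.96%) lower. Independent signs with even odds would match in all 5 pairs for a share of 0.0625, and 4.1% is not above that. Membership follows the labelled pool numbers, those of Control 1 and Control 4 included. The median absolute mean difference was 0.25 log2 among the higher and 0.23 among the lower genes, beside 0.10 over all tested genes, a gap that choosing by sign favours. Only 4 of the higher genes and none of the lower had a mean difference beyond 1 log2 unit. The genes described next are those whose weakest pair was largest.

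After CDA, the higher genes led with NTNG2, which encodes a membrane-anchored netrin of axon guidance. Its normalised counts were 75.8, 92.4, 62.2, 42.6 and 387 in Control pools 1 to 5 and 188, 152, 310, 84.8 and 617 in CDAE67Q. Pool 5 was the highest in both groups, and the groups overlapped. SAMD4A, an RNA-binding repressor of translation, had 48.0, 184, 73.0, 138 and 323 in Control and 151, 358, 310, 273 and 459 in CDAE67Q. Its mean difference was 0.74 (SE 0.145), with pool 3 the largest at 1.22 and pool 5 the smallest at 0.39. CREB3L3, a transcription factor held in the endoplasmic reticulum membrane until it is cleaved, had 2.82, 3.20, 16.7, 0 and 701 in Control. In CDAE67Q it had 18.6, 15.0, 300, 18.2 and 959. Its mean difference was 0.76, or 0.47 without pool 3. It did not pass 16.7 in the controls of pools 1 to 4 and was high in both libraries of pool 5.

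PTX3, a secreted pattern recognition protein of the pentraxin family, had 105, 874, 420, 1896 and 70.2 in Control and 569, 8953, 2501, 2649 and 114 in CDAE67Q. The pairs differed by 1.64, 3.17, 2.25, 0.45 and 0.34, and the groups overlapped widely. CDAE67Q 1 (569) stood below Control 4 (1896), so the common sign of PTX3 depends on the labelled numbers of these libraries. The desmosomal protein gene PKP2 had 78.5, 57.5, 109, 112 and 28.9 in Control and 276, 142, 387, 211 and 55.5 in CDAE67Q, a mean difference of 0.75 (SE 0.153). COL3A1, a fibrillar collagen, had 10.9, 34.3, 870, 177 and 136 in Control and 86.8, 140, 3830, 1114 and 181 in CDAE67Q. Pools 3 and 4 had the largest differences, 1.98 and 2.04, and pool 5 the smallest, 0.24. For COL3A1 too, CDAE67Q 1 (86.8) stood below Control 4 (177), while for PKP2 it stood above (276 against 112). GLUL, described below, had 7.54 in CDAE67Q 1 and 8.34 in Control 4, so its common sign has the same dependence. COL3A1 is also a fibroblast marker, whose list sums stand above, and its part in this result was not tested.

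The remaining higher genes had mean differences under 0.5 on the deposited scale. DNTTIP1, a subunit of a mitotic histone deacetylase complex, had a mean difference of 0.47, and PLEKHM1, an adaptor of lysosome fusion, 0.39. GLUL, which encodes glutamine synthetase, differed by 0.43 from counts of 0 to 79.1 in Control and 7.54 to 108 in CDAE67Q. The small membrane protein gene SMIM29 differed by 0.30. LMCD1, a LIM domain cofactor of transcription, had 10.7, 9.68, 14.9, 11.1 and 11.8 in Control and 21.9, 49.6, 32.7, 38.8 and 34.7 in CDAE67Q. Its groups did not overlap, on low counts. On log2 of the count plus 1, GLUL differed by 2.03 and LMCD1 by 1.5, more than SAMD4A (1.23), NTNG2 (1.19) and PKP2 (1.35). On that scale CREB3L3 (2.62) differed more than both, and COL3A1 (2.02) and PTX3 (1.90) more than LMCD1. The weakest pair of the last gene inside this group, GLUL, was 0.22, and the weakest pairs of XDH, IL17RE and DUSP7, just outside it, were 0.22, 0.20 and 0.19.

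The lower genes were led by UQCC1 and TAF1. TAF1, the largest subunit of the general factor TFIID, had 1572, 1143, 2457, 1682 and 2042 in Control and 1147, 730, 1575, 1434 and 1715 in CDAE67Q. TAF1B, which takes part in RNA polymerase I initiation, had 450, 228, 502, 473 and 376 in Control and 272, 190, 345, 261 and 302 in CDAE67Q. Both had a mean difference of -0.40, with overlapping groups. BPTF, of the nucleosome remodelling factor NURF, differed by -0.35, with pool 1 at -0.86, the other pools between -0.27 and -0.17, and a mean of -0.23 without pool 1. The remodeller gene CHD1 differed by -0.22. ID2, an inhibitor of basic helix-loop-helix factors, had 3619, 6514, 2838, 1839 and 3768 in Control and 1912, 1267, 1384, 1404 and 3293 in CDAE67Q. Its pool 2 difference of -2.24 was the largest among the 12 lower genes, beside -0.19 in pool 5, and its mean of -0.93 was -0.60 without pool 2. CDAE67Q 1 (1912) stood above the lowest control of ID2 (1839), so the common sign of ID2, like that of PTX3, depends on the labelled numbers of these libraries.

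The other lower genes included 2 receptors. IL1R1, the signalling receptor of interleukin 1, had 2995, 1637, 2400, 2253 and 2734 in Control and 1717, 757, 938, 1951 and 2450 in CDAE67Q. The differences of -0.76, -0.99 and -1.24 in pools 1 to 3 stood beside -0.19 and -0.15 in pools 4 and 5. TLR3, the endosomal receptor of double-stranded RNA, had 29.5, 15.8, 25.0, 18.4 and 46.1 in Control and 10.9, 8.94, 3.75, 10.3 and 11.5 in CDAE67Q, with no overlap. UQCC1, an assembly factor of respiratory complex III, had a mean difference of -0.43, and the cyclic AMP phosphodiesterase gene PDE4D -0.62, with pool 2 at -1.51 and a mean of -0.40 without it. The zinc finger genes ZNF345 and ZNF721 both differed by -0.26, and CBWD1, which has near-identical copies that counting could split, by -0.18. CDAE67Q 4 stood above Control 1 for UQCC1 (981 against 921.5) and CHD1 (1832 against 1501). For ZNF721, CDAE67Q 1 stood above Control 4 (466 against 365). The common sign of UQCC1, CHD1 and ZNF721 thus also depends on the labelled numbers. Just outside this group stood ZNF490, ZHX2 and FUT2, with weakest pairs of -0.15, -0.15 and -0.13.

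**Figure D3:**
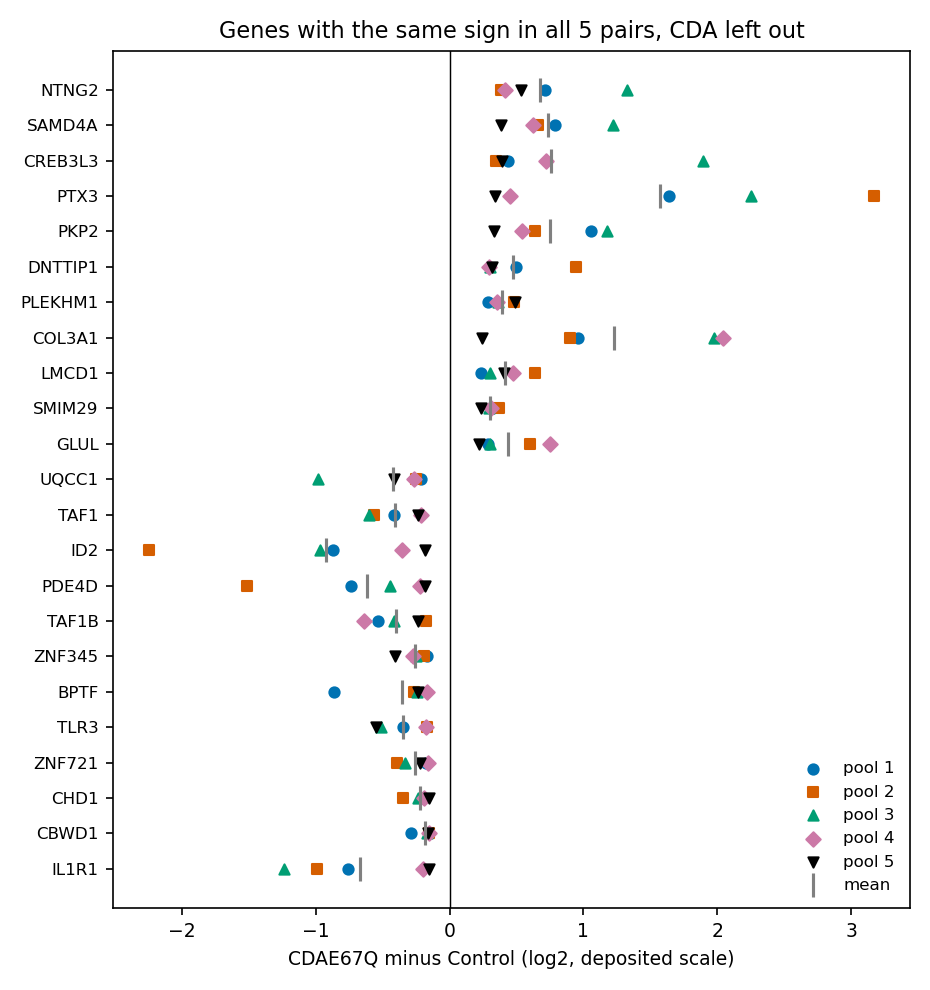
CDAE67Q minus Control (log2, deposited scale) in each pool for the 11 higher genes after CDA and the 12 lower genes with the largest weakest pair; grey bars are means of 5 pairs. Pool 5 lies near 0 for PTX3 (0.34) and ID2 (-0.19), whose pool 2 differences are 3.17 and -2.24.

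Groups that did not overlap were found for 9 tested genes, 4 higher (0.0353%) and 5 lower (0.0441%). The higher genes were CDA, LMCD1, the pro-apoptotic BID and the mitochondrial ribosomal protein gene MRPL2. BID had 1469 to 1788 in Control and 1837 to 2599 in CDAE67Q. The lower genes were TLR3, MIER3, RHOBTB2, RPRD1B and SESTD1. RHOBTB2 was at 733 to 818 in Control and 651 to 733 in CDAE67Q, so its groups were separated by less than 1 count. Apart from CDA, these genes differed by at most 0.46 on the deposited log2 scale (SESTD1, lower). On log2 of the count plus 1, which compresses low counts less, LMCD1 differed by 1.5, TLR3 by -1.45 and SESTD1 by -1.32, and the other 5 by at most 0.33 either way.

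The higher and lower genes of one sign differed in length and base composition, on opposite sides of all tested genes. The median spliced length was 2767 bases among the 243 higher genes and 4335 among the 222 lower, beside 3455 over all tested genes. Median GC content was 56.9% and 44.3%, beside 49.4%. Of the 2780 genes with the highest GC content, 4.03% were higher in all 5 pairs and 0.971% lower, while of the 2780 with the lowest, 1.40% were higher and 3.31% lower. Over all tested genes the pool 2 difference had a rank correlation of -0.38 with length, and the pool 3 difference one of 0.29 with GC content. In pool 5 the correlation with GC content was -0.15. Genes of 1 pool share their libraries, so these are descriptions, and the part of library chemistry in the same-sign genes was not tested. Zinc finger genes with a ZNF name, a group chosen after the values were seen, counted 16 lower (4.55%) and 6 higher (1.70%) among 352 tested, beside 1.96% and 2.14% of all tested genes; upper-quartile scaling gave 14 and 6, and centring 16 and 7.

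The size of the response differed between pools and was smallest in pool 5. The root mean square difference over tested genes was 0.46, 0.51, 0.47, 0.37 and 0.18 log2 in pools 1 to 5, so that pools 1 to 4 were 2.05 to 2.86 times as large as pool 5. Differences beyond 1 log2 unit were counted for 405 genes in pool 1 (3.57%), 539 in pool 2 (4.75%), 409 in pool 3 (3.61%) and 240 in pool 4 (2.12%). In pool 5 there were 6 (0.0529%). With 1 pair a pool these sizes carry no replicate error. The pool 5 libraries had 26.0 and 23.0 M estimated reads, within the range of the other pools, and they were also the most alike pair, at r = 0.92. For CDA, pool 5 was not the smallest: its ratio of 32.3 lay below those of pools 1 and 4 and above those of pools 2 and 3.

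**Figure D4:**
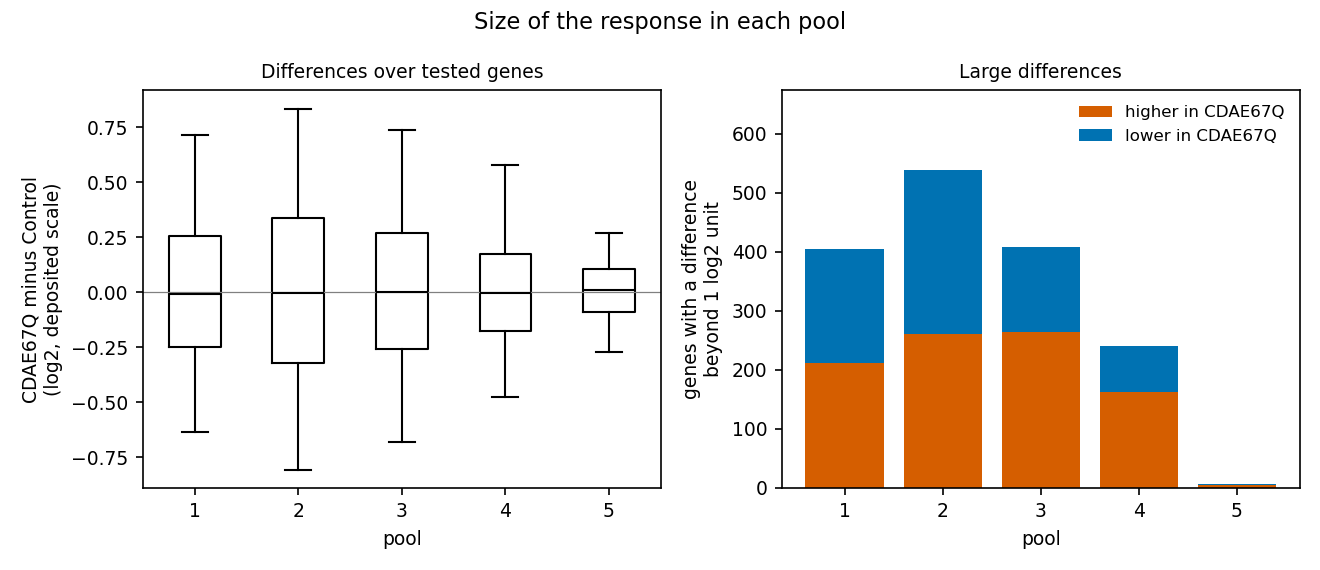
Left, CDAE67Q minus Control over 11341 tested genes in each pool (log2, deposited scale; line, median; box, quartiles; whiskers, 5th to 95th percentile). Right, genes beyond 1 log2 unit, stacked by direction, which number 539 in pool 2 and 6 in pool 5.

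Large differences were mostly private to a pool, although SCG2, CTSC and BTG1, described below, passed 1 log2 unit in 3 or 4 pools. Of the tested genes, 941 passed 1 log2 unit in 1 pool, 208 in 2, 63 in 3, 12 in 4 and 1, CDA, in all 5. SCG2, which encodes the secretory granule protein secretogranin II, gave the widest spread, with 38.3, 145, 12791, 10130 and 6626 in Control and 7330, 1981, 4992, 603 and 6622 in CDAE67Q. It was higher in pools 1 and 2, lower in pools 3 and 4, and level in pool 5. CTSC, a lysosomal protease, had 10630 in Control 1 against 455 in CDAE67Q 1, but 2580 against 9041 in pool 4. BTG1, an antiproliferative regulator, had the same form, with 2059 against 54.7 in pool 1 and 165 against 1234 in pool 4.

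Pools 1 and 4 differed in opposite directions over the whole table. Their differences correlated at -0.58 across genes, and of 140 genes beyond 1 log2 unit in both, 6 had the same sign. Control 1 and Control 4 are also the libraries that resembled the overexpressing libraries of each other's number, and the part of their numbering in this opposition was not tested. The most alike were pools 2 and 3 (r = 0.19), where 58 of 66 such genes had the same sign. In pool 2 the lowest differences were those of VCAN, a matrix proteoglycan (2652 against 114), TNFSF4, an immune costimulatory ligand (1132 against 37.3), and the adhesion molecule gene L1CAM (1636 against 215). Pool 3 was led by RYR2, a calcium release channel (7.90 against 1828), and TGM2, a protein crosslinking enzyme (2935 against 35636). At its low end stood CALB2, a calcium-binding protein (4336 against 368), and the kallikrein proteases KLK6 (12406 against 1408) and KLK7 (1981 against 154). In pool 4 IGFBP6, which binds insulin-like growth factors, had 863 against 6569. AFAP1L2, an adaptor of Src signalling, was high in CDAE67Q in pool 1 (405 against 3516) and low in pool 4 (4733 against 485). TGFB2, a transforming growth factor, had 21.2 against 612 in pool 2.

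Pool 5 had few genes at its ends besides CDA. BARD1, the partner of BRCA1, had 241 in Control and 685 in CDAE67Q, and AKNA, a centrosomal protein, 215 and 565. Lowest were ALG14 of protein N-glycosylation (448 against 75.8), the iron carrier transferrin gene TF (74.4 against 3.74) and the microfibril gene FBN1 (145 against 33.6). None of these 5 genes had the same sign in all pools. BARD1 differed by 0.17, -0.70, -0.24 and 0.40 in pools 1 to 4.

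Without pool 5, 905 genes (7.98%) had one sign in the remaining pairs, of which 432 were higher (3.81%) and 473 lower (4.17%). The share for independent signs with even odds over 4 pairs would be 0.125. In pool 5, 243 of the 432 had the same sign and 189 the opposite one, and of the 473, 222 had the same and 251 the opposite. Fewer pairs must match in any such count, which was 1658 without pool 1 (14.6%), 946 without pool 2 (8.34%), 783 without pool 3 (6.9%) and 1615 without pool 4 (14.2%). The shares without pool 1 and without pool 4 were above 0.125, and those without pool 2 and without pool 3 below it. Without pools 1 and 4 the count was 3446 (30.4%), with fewer pairs still to match. CDA alone was called by limma without pool 5, where 225 genes (1.98%) had an unadjusted p under 0.05, without pool 1 (648 genes, 5.71%) and without pools 1 and 4 (758 genes, 6.68%). The last 2 shares were above the 0.05 expected if no gene differed, the first below it. Genes share their libraries, and the cause of these shares was not tested.

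Some genes had one sign in pools 1 to 4 and the opposite in pool 5. ADM, which encodes the vasodilator peptide adrenomedullin, had 38.7, 105, 45.5, 75.8 and 54.8 in Control and 91.7, 638, 417, 302 and 35.8 in CDAE67Q. It was higher in CDAE67Q in 4 pools, by 0.52 to 1.82 log2, and lower in pool 5, with a difference of -0.22. NRGN, UBE2E2, LRP12, HAPLN2 and HBA1 had the same pattern, with pool 5 differences of -0.23, -0.25, -0.40, -0.23 and -0.82. HBA1 shares near-identical sequence with another globin gene and is uncertain. Lower in pools 1 to 4 and higher in pool 5 were ERCC8, of transcription-coupled repair, the splicing factor gene RBM5, the motor gene MYO6, the deubiquitinase gene USP37 and CPLANE1, of cilia. ERCC8 had 294, 256, 322, 307 and 206 in Control and 227, 179, 216, 245 and 304 in CDAE67Q. A limma test of pool 5 against the mean of pools 1 to 4 called 0 of 11341 genes, with 15 at an unadjusted p under 0.05 (0.132%). It rests on 1 pair on one side, assumed to vary like the other pools.

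Gene lists of pathways around CDA held no called member other than CDA. Of 17 tested cytidine, nucleotide and RNA-editing deaminase genes, the AMP deaminase gene AMPD3 was the 1 besides CDA, the overexpressed gene, that was higher in all 5 pairs. With CDA that is 11.8%, beside 2.14% of all tested genes, so the share rests on CDA and 1 other gene. AMPD3 had 112, 133, 90.5, 146 and 199 in Control and 196, 196, 136, 179 and 218 in CDAE67Q. Pyrimidine synthesis and salvage, with 32 tested genes, had none with one sign throughout. Its median difference was 0.08 log2 (0.02 without pool 2, 0.14 without pools 1 and 4), beside 0.01 over all tested genes, and its pool medians were -0.18, 0.36, 0.06, 0.05 and 0.01. DPYD, which starts the breakdown of uracil, had 6055, 2447, 2792, 3207 and 5232 in Control and 2541, 1204, 2174, 3987 and 5247 in CDAE67Q. It was lower in pools 1 to 3 and not in pools 4 and 5. TYMP, thymidine phosphorylase, was higher in 4 of 5 pairs. The nucleoside transporter gene SLC29A1, which carries gemcitabine into cells, had a mean difference of 0.16 (SE 0.146).

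Replication and repair lists likewise held few genes of one sign. Of 50 DNA replication genes 1 (2%, beside 1.96%), the origin recognition gene ORC2, was lower in all 5 pairs, by -0.10 on average. In the replication stress list of 40 genes, FANCE of the Fanconi anaemia core complex was higher in all 5 pairs (2.5%, beside 2.14%), by 0.23. CHEK2, a checkpoint kinase of the same list, had 771, 892, 1031, 882 and 721 in Control and 994, 1847, 1409, 1112 and 666 in CDAE67Q, higher in pools 1 to 4. Among 23 homologous recombination genes, NBN of the double-strand break sensor was lower in all 5 pairs (4.35%), by -0.24. Of 29 p53 targets, PLK3 and CCNG1 were higher in all 5 (6.90%), by 0.18 and 0.09, and GADD45A was higher in pools 1 and 2 by 0.91 and 1.81 and differed by -0.01 in pool 5. Among 39 mitotic genes, UBE2C was higher in all 5 (2.56%). With 1 or 2 genes a list, these shares rest on single genes.

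In the lists of growth and metabolism, pool 2 stood apart. The 40 MYC and ribosome biogenesis genes had a median of 0.13 log2, and 34 had a mean above 0, beside 5817 of all 11341 tested genes. Their pool medians were -0.21, 0.72, 0.28, -0.04 and 0.06. Of the 68 nuclear-encoded oxidative phosphorylation genes, 59 had a mean above 0, with pool medians of -0.19, 0.61, 0.12, -0.05 and 0.00. Each list held 1 gene higher in all 5 pairs, MYC (2.5%) and SDHB (1.47%). In both, pool 2 was the highest and pool 1 the lowest, and the medians depended on both. Without pool 2 they were 0.03 and -0.03, without pool 1 0.24 and 0.17, and without pools 1 and 4 0.34 and 0.23. Pool 2 is also the pool whose differences went with gene length, and that part was not tested.

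Inflammatory and stress lists had a few genes of one sign. Of 17 NF-kB and cytokine genes, the NF-kB subunit genes RELB and NFKB2 were higher in all 5 pairs (11.8%, beside 2.14%). RELB had 152, 418, 332, 156 and 577 in Control and 195, 1063, 685, 351 and 641 in CDAE67Q, a mean difference of 0.62 (SE 0.169). NFKB2 differed by 0.49, 1.46, 0.73, 0.25 and 0.01, so its sign in pool 5 rests on 3886 against 3921. Among 40 interferon-stimulated genes, OAS2 and HERC6 were higher in all 5 (5%), and the list's median was 0.03, or -0.06 without pool 1, -0.02 without pool 4 and -0.05 without both. Of 29 hypoxia and glycolysis genes the hexokinase genes HK1 and HK2 were higher in all 5 (6.90%), by 0.17 and 0.37. In the list of 30 stress response genes these were MANF and CEBPB (6.67%), of which CEBPB was level in pool 3 (1940 against 1946). The 26 matrix genes had a median of 0.09, with COL3A1 (3.85%) the only one of one sign. That median was -0.01 without pool 3, 0.14 without pool 5, 0.15 without pool 2 and 0.05 without pools 1 and 4. Of 21 replication-dependent histone genes, whose near-identical copies make counts uncertain, H1-4 was higher in all 5 (4.76%). Cholesterol biosynthesis and nucleoside transport and efflux had none.

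**Figure D5:**
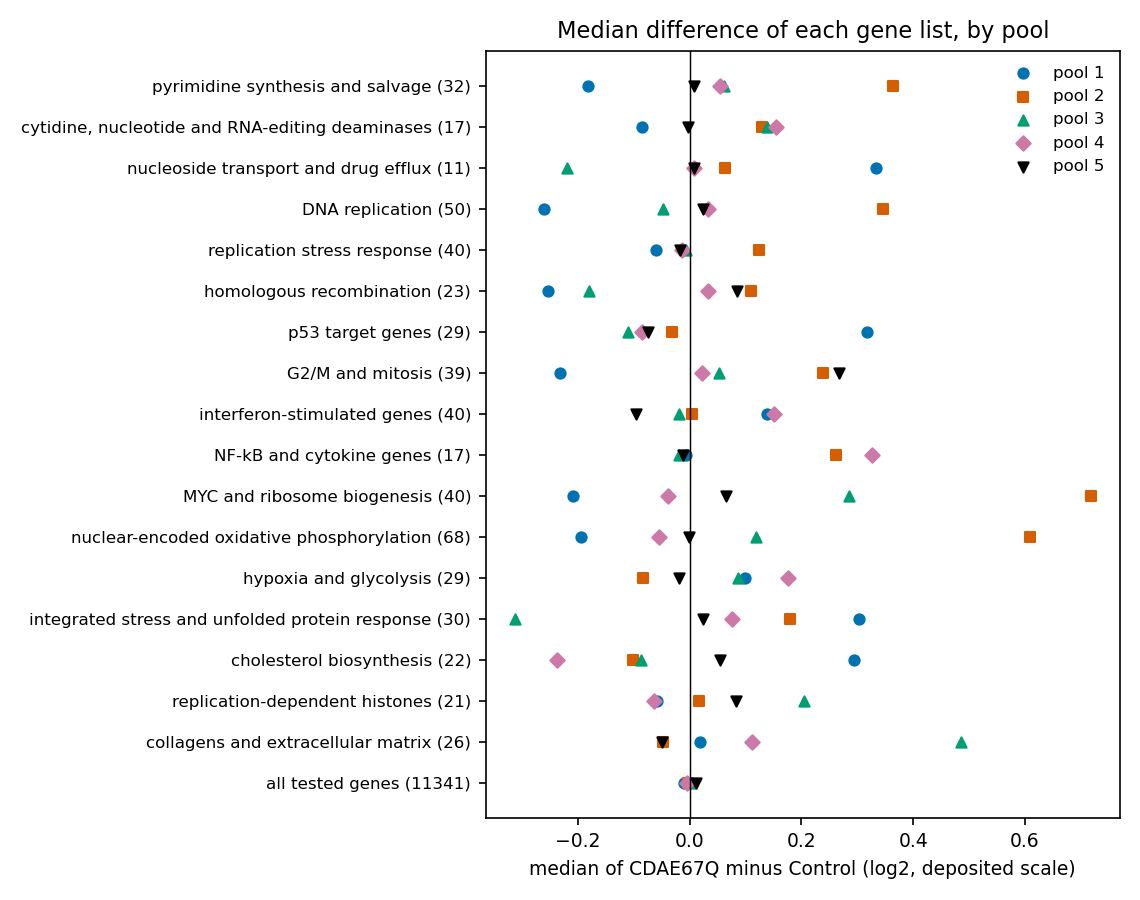
Median CDAE67Q minus Control difference of each gene list with at least 10 tested genes (number in brackets), by pool (log2, deposited scale). Pool 2 reaches 0.72 for MYC and ribosome biogenesis and 0.61 for oxidative phosphorylation, and the medians of all tested genes lie within 0.02 of 0.

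Beside the wild-type enzyme, CDAE67Q cells had an overlapping range of CDA transcript. On the scale common to both tables, the CDA libraries had 1122, 5135, 2168, 762 and 1405. CDAE67Q minus CDA was 0.38 on log2 of the count plus 1 (95% interval -0.77 to 1.52, unadjusted p = 0.487 by limma with pool number as a block), an interval that holds both no difference and a difference of over 1 log2 unit. The same test called 0 of 11578 genes, with 125 at an unadjusted p under 0.05 (1.08%). Its fit held all 15 libraries, so its error and intervals also take in the Control libraries, those of pools 1 and 4 included. Both overexpressing groups were compared with the same 5 control libraries, so their values are set side by side only. On the common scale, CDAE67Q minus CDA was 0.08 for PTX3 (95% interval -0.96 to 1.11), -0.25 for ID2 (-0.85 to 0.35) and -0.17 for IL1R1 (-0.67 to 0.32). It was 2.20 for CREB3L3 (0.83 to 3.58) and 0.86 for NTNG2 (0.21 to 1.52), and limma's adjusted p was 1.00 for all 5 genes. On log2 of the count plus 1, CDAE67Q minus Control was 2.62 for CREB3L3 and 1.19 for NTNG2, beside 0.76 and 0.67 on the deposited scale. Against the shared controls, IL1R1 and PDE4D were lower in all 5 CDA pairs, and LMCD1 and DNTTIP1 higher in all 5. DNTTIP1 differed by only 0.06 in pool 2. Other higher genes did not keep their sign: NTNG2, CREB3L3, PTX3, PKP2 and PLEKHM1 were higher in 3 CDA pairs, and SAMD4A and COL3A1 in 4. The share of all tested genes with one sign in the CDA pairs was not counted, and the shared controls favour likeness.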

How the data were processed

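RNA was poly-A selected and sequenced, and the submitters' processing notes list Salmon, Trimmomatic, FastQC and bcl2fastq and the build GRCh38. The authors deposited values on a log2 scale for 16887 genes, which look like variance-stabilised counts. How they were made from Salmon's output is not stated in the labels. They were turned back into normalised counts from the floor shared by genes without a read (6.17). Such counts are not whole reads, so no count test was run and depths are estimates. Counting by strand is not stated, so overlapping and antisense genes are uncertain.

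The 11341 genes that reached a normalised count of 10 in 5 or more of the 10 libraries were tested. The tool was limma 3.58.1 (R 4.3.3), run on the deposited log2 values with a trended prior variance, pool number as a block and a Benjamini-Hochberg threshold of 0.05. CDAE67Q and CDA, which stand in 2 tables, were compared on log2 of the count plus 1 after scaling through the control libraries that both tables hold. That fit held all 15 libraries, Control included. Tests were 2-sided. The fits were tested on simulated data. Alternatives were no block, other pseudocounts (1 and 10), no filter, a mean count of at least 100, upper-quartile or median centring, robust variance and leaving pools out.

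The comparison, the 24 gene lists and the tests were chosen with earlier results of these data known. Named were CDA, the 12 higher and 12 lower genes of one sign with the largest weakest pair, the 3 highest and 3 lowest per pool, 6 each way that turn in pool 5, and 2 with the smallest p per list. Of these, 2 genes are not reported here. Genes of one sign in all pairs within a list, those without overlap and those listed by smallest p were added after their values were seen.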

Additional observations from a re-analysis of the deposited data

Results flagged for a closer look

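Of 52 groups of 5 values that were checked, 9 held a value whose gap to its neighbour was over 0.71 of the whole range. That cut-off passes about 1 in 20 groups of 5 independent, normally distributed values. The groups here hold genes picked from these data, and some are untransformed counts, so that rate is no yardstick for them. Among the pair differences, CDA in pool 2 stood at 2.30 beside 3.65 to 4.11 in the other pools. CREB3L3 in pool 3 stood at 1.90 beside 0.35 to 0.72. UQCC1 in pool 3 was -0.98 beside -0.42 to -0.21, BPTF in pool 1 was -0.86 beside -0.27 to -0.17, and CBWD1 in pool 1 was -0.29 beside -0.17 to -0.15.

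Among normalised counts, CDA in the CDAE67Q library of pool 3 stood at 5383 beside 1334 to 2439. PTX3 in the CDAE67Q library of pool 2 stood at 8953 beside 114 to 2649. The Control library of pool 5 held NTNG2 at 387 beside 42.6 to 92.4 and CREB3L3 at 701 beside 0 to 16.7.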

How the results depend on the processing

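The replicate block decided the call of CDA: the fit without it called 0 genes, CDA included (difference 3.50, adjusted p = 0.0680). Same-numbered libraries were each other's closest match in pools 2, 3 and 5. In pool 1 they were not alike (r = -0.11), and in pool 4 CDAE67Q was closer to Control 1 (0.49) than to Control 4 (0.38). CDA was also not called on log2 of the count plus 1 (5.09, adjusted p = 0.0691) or after upper-quartile scaling of that scale (5.06, adjusted p = 0.108), both of which called 0 genes by limma, with 265 and 251 at an unadjusted p under 0.05. It was called in 11 of 14 alternatives, with adjusted p-values from 0.000165 to 0.108 and differences of 3.23 to 5.09. Leaving out 1 pool gave 399 to 879 genes higher and 384 to 779 lower in all remaining pairs. Leaving out pools 1 and 4, chosen after seeing the data, gave 1861 and 1585. Upper-quartile scaling shifted the pool 2 median by -0.11 log2 and gave 220 higher and 242 lower genes, of which 168 and 178 were shared with the deposited scale, where 52.3% of same-sign genes were higher against 47.6%. The root mean square of pools 1 to 5 was 0.815, 0.766, 0.766, 0.679 and 0.348 on log2 of the count plus 1, 0.665, 0.668, 0.652 and 0.542 for pools 1 to 4 with a pseudocount of 10, and 0.816, 0.778, 0.766, 0.682 and 0.351 after upper-quartile scaling. Pool 5 was the smallest in each. Depth bears most on low genes such as TLR3, LMCD1 and GLUL, and the values carry no counting interval.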
